A study of Arabidopsis thaliana with 6 samples.

Results

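Auxin, chiefly indole-3-acetic acid (IAA), is the plant hormone that steers cell expansion, organ formation and the direction of growth. When auxin is present, its F-box receptors mark the Aux/IAA repressors for degradation, and the auxin response factors (ARF) that these repressors hold back switch on early response genes. These include most Aux/IAA genes themselves, the SAUR genes of cell expansion and the GH3 genes. GH3 enzymes join auxin and related acids to amino acids, which takes free auxin out of action or marks it for breakdown, and PIN and LAX proteins carry auxin out of and into cells. The 6 families were looked for in rosettes with extra PCO1, and 11 of their genes could be followed, out of 13356 genes that had a probe set of their own. The members are the genes whose symbol in the platform annotation begins as one of the family names does, each with 1 probe set. They comprise 7 Aux/IAA genes (IAA18, IAA20, IAA29, IAA30, IAA31, IAA33 and IAA34) and 4 GH3 genes (GH3.1, GH3.3, GH3.9 and GH3.17). No ARF, SAUR, PIN or LAX gene had a probe set of its own in the platform annotation, so those 4 families were not analysed here. That annotation gave no gene for 8730 of the 22746 probe sets tested, so it does not show that the array lacks these families. The RefSeq gene table holds 24 symbols that begin as Aux/IAA names do and 5 that begin as GH3 names do. Genes under other names, such as WES1 below, are outside these counts, so the share of either family seen is not known.

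The plants were Arabidopsis thaliana in air (normoxia), of the genotype 35S:PCO1 or wild type, with 3 samples of whole rosettes in each group and 1 Affymetrix array per sample. PCO1 is plant cysteine oxidase 1, which uses oxygen to oxidise the amino-terminal cysteine of certain ethylene response factors, and the 35S promoter of a plant virus drives the transgene in nearly all tissues. Both groups grew with 8 h of light at 22 °C and 16 h of darkness at 18 °C, and were sampled 2 h into the day. The labels give the age as 4 weeks in one field and 5 weeks in another, name the transgene CDO1 in the titles and PCO1 in the genotype, and do not say how many lines or plants stand behind a sample. The p-values therefore reflect variation among these arrays alone, part of which may be technical. The median signal of an array ran from 6.11 to 6.15 (log2), and arrays correlated at 0.996 to 0.999 across probe sets within a group and at 0.995 to 0.997 between groups. Of the markers for tissue, the leaf genes RCA (Rubisco activase) and LHCB4.1 (a light-harvesting protein) were high on every array, at means of 13.5 and 13.4 in 35S:PCO1 and 13.5 and 13.5 in wild type (log2). No flower, seed or vascular marker was named alone by a probe set in the annotation, so none was analysed here. In whole rosettes, fewer cells of a type and less RNA per cell cannot be told apart.

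No member of either family passed the test between genotypes. The 4 GH3 genes all had differences below 0, with a median of -0.20 on the log2 scale, where 48.4% of all probe sets lay below 0, while the 7 Aux/IAA genes were spread around 0, with a median of 0.0084. Over all 22746 probe sets tested the median difference was 0.0036. In the same fit (moderated statistics from limma, adjusted by Benjamini-Hochberg over all probe sets), 0.840% of the probe sets passed an adjusted p of 0.05, so a count of 0 of 11 lies near the background. At an unadjusted p under 0.05 stood 2 of the 11 members, GH3.9 and GH3.3, against 13.4% of all probe sets (7.49% with a difference below 0). The 95% intervals of 9 of the 11 differences held 0. The largest fold that lay inside any of the 11 intervals was 1.33 with the higher level in wild type and 1.18 with the higher level in 35S:PCO1, on the scale of the array signal.

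Most members gave a weak signal in these rosettes, so the array had little room to show a fall. As a floor, the 12 dap and lys control probe sets, which detect bacterial genes, ranged from 3.07 to 3.82 (log2), and other bacterial controls (phe, thr and trp) reached 5.89. All 6 arrays of IAA20 lay within the range of dap and lys. The other 10 members lay above that range on every array. IAA18 alone lay above all the bacterial controls on every array. The deposited values carry no call of presence or absence, so whether the remaining transcripts were present is not settled by these data.

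**Figure D1:**
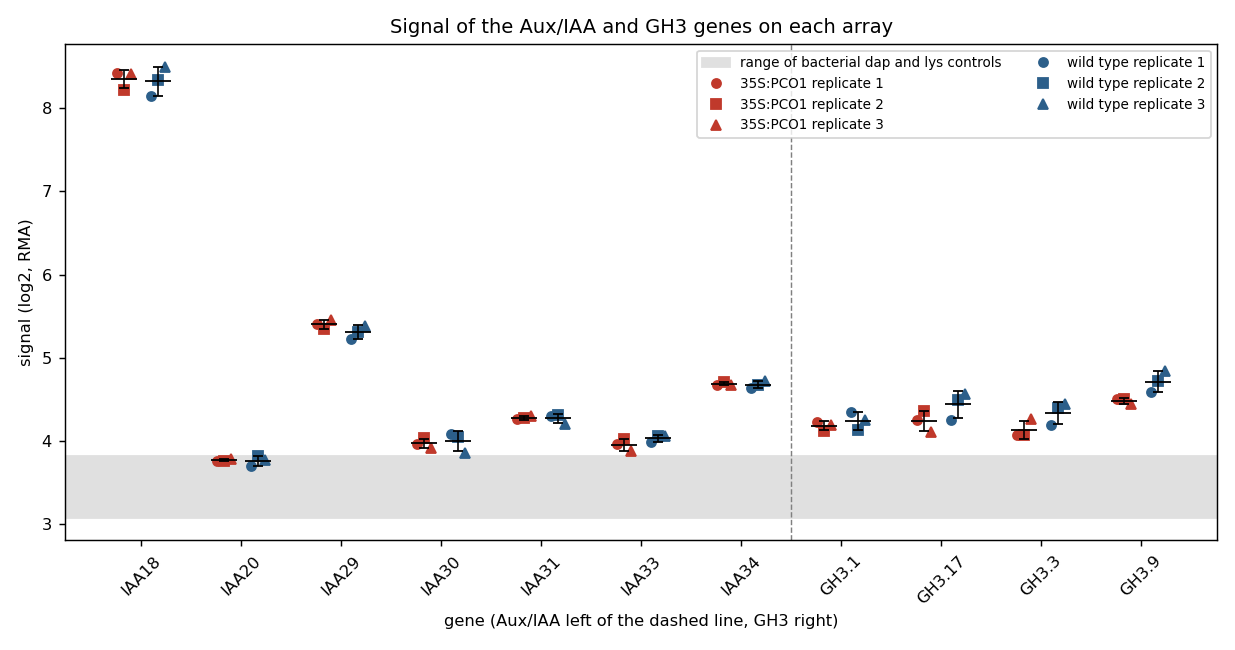
Signal (log2, as deposited) of the 7 Aux/IAA and 4 GH3 genes on each of 3 35S:PCO1 arrays (red) and 3 wild-type arrays (blue), with the mean and SD of each group as black bars and the range of the bacterial dap and lys controls (3.07 to 3.82) in grey. The groups overlap for every gene but GH3.9, and all arrays of IAA20 lie in the grey band.

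IAA18, an Aux/IAA repressor known from gain-of-function mutants with altered root and embryo patterning, was the 1 member with a clear signal. It read 8.43, 8.22 and 8.41 in 35S:PCO1 rosettes, against 8.14, 8.34 and 8.50 in wild-type rosettes (log2). The wild-type arrays enclosed the 35S:PCO1 arrays. The difference was 0.03 (SE 0.09, limma adjusted p = 0.935), with a 95% interval of -0.18 to 0.24.

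IAA29, a family member known as a target of the light-regulated PIF transcription factors, had the largest positive difference of the 11. Its signal was 5.41, 5.34 and 5.45 in 35S:PCO1, against 5.22, 5.31 and 5.38 in wild type (log2). Wild-type replicate 3 lay above 35S:PCO1 replicate 2, so the groups overlapped. The difference was 0.09 (SE 0.06, limma adjusted p = 0.575), with a 95% interval of -0.04 to 0.23.

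IAA20 and IAA30, close relatives that lack the degron by which auxin receptors recognise most Aux/IAA proteins, did not differ detectably. IAA20 read 3.76, 3.76 and 3.79 in 35S:PCO1, against 3.69, 3.81 and 3.76 in wild type (log2), a difference of 0.01 (SE 0.05). IAA30 read 3.96, 4.03 and 3.92 in 35S:PCO1, against 4.08, 4.05 and 3.86 in wild type, a difference of -0.02 (SE 0.07). In both genes the wild-type arrays spanned the 35S:PCO1 arrays.

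IAA31, a further member of the branch that holds IAA20 and IAA30, read 4.26, 4.27 and 4.30 in 35S:PCO1, against 4.30, 4.31 and 4.20 in wild type (log2). Its difference of 0.0055 (SE 0.05) was the smallest in size of the 11. IAA34 read 4.67, 4.70 and 4.67 in 35S:PCO1, against 4.64, 4.67 and 4.72 in wild type, a difference of 0.0084 (SE 0.05). In both genes the wild-type arrays again spanned those of 35S:PCO1.

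IAA33, an Aux/IAA protein that also lacks the usual degron, had the most negative difference of its family. It read 3.96, 4.02 and 3.88 in 35S:PCO1, against 3.98, 4.05 and 4.06 in wild type (log2). 35S:PCO1 replicate 2 lay above wild-type replicate 1, so the groups overlapped. The difference was -0.08 (SE 0.06, limma adjusted p = 0.626), with a 95% interval of -0.21 to 0.05. Over the 7 Aux/IAA genes, adjusted p ran from 0.575 to 0.978, 5 differences lay above 0 and 2 below, and all 7 of the 95% intervals held 0.

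Among the GH3 genes, GH3.9 had the smallest p and the most negative difference. GH3.9 belongs to the group of acyl amido synthetases that act on auxin and is known from mutants with altered primary root growth. Its signal was 4.50, 4.50 and 4.44 in 35S:PCO1 rosettes, against 4.58, 4.71 and 4.83 in wild-type rosettes (log2). Every 35S:PCO1 array lay below every wild-type array, which was so for 9.31% of all probe sets in this direction and for 1 of the 11 members. The means were 4.48 ± 0.04 in 35S:PCO1 and 4.71 ± 0.13 in wild type (SD, n = 3 each). The difference of -0.23 (SE 0.07, 95% interval -0.39 to -0.07) did not pass (limma adjusted p = 0.198).

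GH3.3, a conjugating enzyme strongly induced by auxin, read 4.07, 4.07 and 4.26 in 35S:PCO1, against 4.19, 4.39 and 4.44 in wild type (log2). The groups overlapped, as 35S:PCO1 replicate 3 lay above wild-type replicate 1. The difference was -0.20 (SE 0.08, 95% interval -0.39 to -0.02, limma adjusted p = 0.317).

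GH3.17, known to join auxin to glutamate, read 4.25, 4.35 and 4.105 in 35S:PCO1, against 4.25, 4.49 and 4.57 in wild type (log2). The groups overlapped, as 35S:PCO1 replicate 2 lay above wild-type replicate 1 and 35S:PCO1 replicate 1 level with it. The difference was -0.20 (SE 0.09, 95% interval -0.41 to 0.0078, limma adjusted p = 0.394). GH3.1, a further auxin-inducible synthetase, read 4.22, 4.12 and 4.19 in 35S:PCO1, against 4.34, 4.13 and 4.24 in wild type, with a difference of -0.06 (SE 0.07, adjusted p = 0.762). Wild-type replicate 2 of GH3.1 lay among the 35S:PCO1 arrays.

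A further GH3 gene was measured under another name. WES1 (AT4G27260) carries GH3.5 as a synonym in the RefSeq table, and its enzyme conjugates both auxin and salicylic acid in Arabidopsis. The gene lies outside the symbol rule and was added after the data were seen. Its signal was 5.78, 5.79 and 5.76 in 35S:PCO1, against 5.89, 6.42 and 6.89 in wild type (log2). The 35S:PCO1 arrays lay close together and below all wild-type arrays, whose SD was 0.50 against 0.01 in 35S:PCO1. The difference of -0.62 (SE 0.19, 95% interval -1.06 to -0.19), which is a 1.54-fold higher mean in wild type, did not pass (limma adjusted p = 0.209). Its size rested on single wild-type arrays: the difference was -0.88 without wild-type replicate 1, which passed (limma adjusted p = 0.00509), and -0.38 without wild-type replicate 3, which did not (limma adjusted p = 0.242). Over all probe sets, 489 passed without wild-type replicate 1 and 149 without wild-type replicate 3, against 191 with every array kept.

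**Figure D2:**
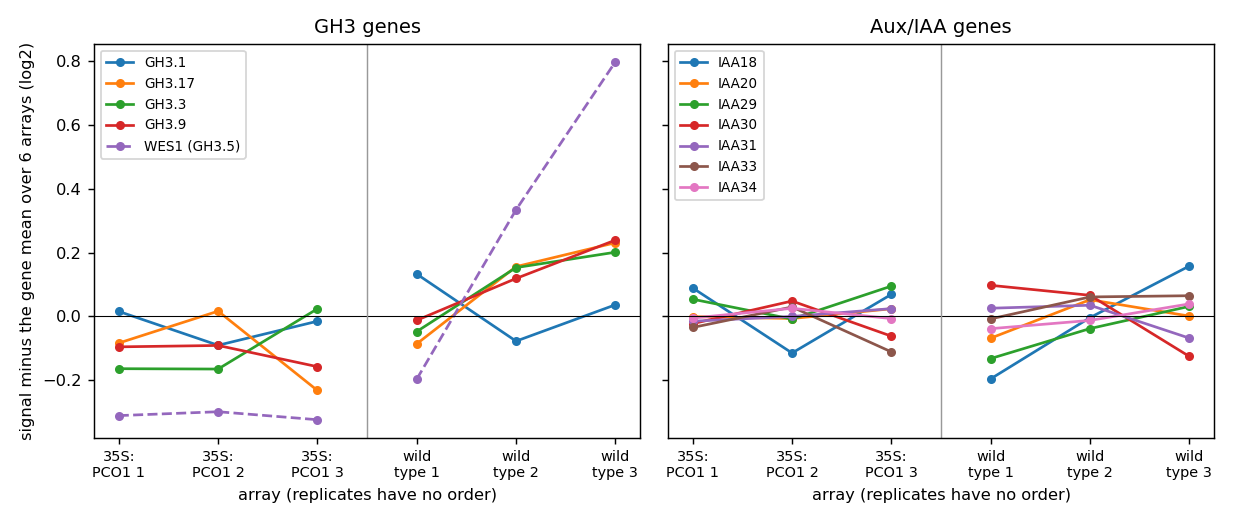
Signal of each GH3 gene (left panel, with WES1 dashed) and each Aux/IAA gene (right panel) on the 6 arrays, as the log2 difference from that gene's mean over all arrays, with the 3 35S:PCO1 arrays left of the 3 wild-type arrays. GH3.3, GH3.9, GH3.17 and WES1 are lowest in replicate 1 among the wild-type arrays, and so are IAA18, IAA20, IAA29, IAA33 and IAA34. GH3.1 and IAA30 are highest in that replicate.

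The wild-type arrays differed among themselves more than the 35S:PCO1 arrays did. The SD was larger in wild type for 10 of the 11 members, the exception being IAA33. Over all probe sets the median SD was also larger in wild type, at 0.0752 against 0.0661 in 35S:PCO1. The share of all probe sets with the larger SD in wild type is not given here. Wild-type replicate 1 was the lowest wild-type array for 8 of the 11 members, among them GH3.3, GH3.9 and GH3.17, and wild-type replicate 3 the highest for 7. The median signal over all probe sets had the same order, at 6.118, 6.131 and 6.152 in wild-type replicates 1, 2 and 3 (log2). IAA30 had the reverse order, with wild-type replicate 1 the highest and replicate 3 the lowest. The shares of all probe sets lowest in wild-type replicate 1 or highest in replicate 3 are not given here. Averaged over the 4 GH3 genes, the deviation from each gene's mean was -0.08, -0.08 and -0.10 in 35S:PCO1 replicates 1, 2 and 3, against -0.0035, 0.09 and 0.18 in wild-type replicates 1, 2 and 3. The same average over the 7 Aux/IAA genes was 0.0089, -0.0041 and 0.0043 in 35S:PCO1, against -0.05, 0.02 and 0.01 in wild type. In this GH3 average the wild-type array closest to 35S:PCO1 was replicate 1, although for GH3.1 it was the highest wild-type array. The median GH3 difference was -0.29 without wild-type replicate 1 and -0.14 without wild-type replicate 3, and 0 of the 11 members passed in either case.

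Some measures of the samples also differed among these arrays. The control probe set for the large-subunit ribosomal RNA read 7.39, 7.54 and 7.30 in 35S:PCO1, against 8.88, 8.66 and 8.48 in wild type (log2). Its difference of -1.26 passed (limma adjusted p = 1.81e-04 over the 64 controls), while that of the 5S ribosomal RNA control, 0.04, did not (limma adjusted p = 0.993). The log2 signal at the 3' end less that at the 5' end, averaged over 6 pairs of control probe sets (actin, GAPDH and ubiquitin) and higher in less intact RNA, came to 0.579, 0.628 and 0.547 in 35S:PCO1, against 0.761, 0.688 and 0.581 in wild type. Among the 6 arrays, the large-subunit control and the 3' excess were both highest in wild-type replicate 1. Within wild type both were lowest in replicate 3, whereas the GH3 average was lowest in replicate 1 and highest in replicate 3. Of 8 root markers 2 were named alone by a probe set: PYK10 (a beta-glucosidase of root) differed by -0.45 and EXPA7 (a root hair expansin) by 0.19, and neither passed. The 1 meristem marker so named, CLV3, differed by 0.0081. The part of these measures in the GH3 values was not tested.

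The other genes of the pathway gave no call either. Of 118 genes written for it, 14 were named alone by a probe set, and 0 of the 14 rose and 0 fell by limma's adjusted p, against 0.207% and 0.633% of all probe sets. An unadjusted p under 0.05 was seen for 3 of them, against 13.4% of all probe sets in either direction. Their differences ran from -0.16 to 0.27, with a median of 0.04 and with 9 above 0 and 5 below. The groups did not overlap for 5 of them, 3 higher and 2 lower in 35S:PCO1, against 9.07% of all probe sets that lay apart upwards and 9.31% downwards. No gene of the auxin receptors and their complex, of the transport list or of the corepressors was named alone by a probe set in the annotation, so none was analysed here.

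Among these genes EXPA8, an expansin of the list of auxin-induced targets that loosens cell walls, had the smallest p. It read 9.69, 9.76 and 9.72 in 35S:PCO1, against 9.35, 9.41 and 9.60 in wild type (log2). All its 35S:PCO1 arrays lay above all wild-type arrays, and the difference of 0.27 (SE 0.07, 95% interval 0.11 to 0.43) did not pass (limma adjusted p = 0.139). It passed without wild-type replicate 3 (difference 0.34, limma adjusted p = 0.0451), but not with any other array left out (limma adjusted p from 0.178 to 0.432). LBD29, a transcription factor of lateral root formation downstream of ARF proteins, read 4.72, 4.79 and 4.70 in 35S:PCO1, against 4.84, 4.91 and 4.95 in wild type. Its groups did not overlap, and the difference was -0.16 (SE 0.06, limma adjusted p = 0.266).

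YUC11, a flavin monooxygenase of the last step of auxin synthesis, read 4.61, 4.59 and 4.62 in 35S:PCO1, against 4.42, 4.59 and 4.40 in wild type (log2). The 35S:PCO1 arrays all lay above the wild-type ones, though wild-type replicate 2 came close to them, and the difference was 0.14 (SE 0.06, limma adjusted p = 0.372). Its relatives YUC4, YUC2 and YUC6 differed by 0.08, 0.01 and -0.04, and of these YUC4 had groups that did not overlap. XTH19, a wall-modifying enzyme, read 3.85, 3.97 and 3.72 in 35S:PCO1, against 3.95, 3.94 and 4.02 in wild type, and differed by -0.12 (limma adjusted p = 0.517).

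The other genes of the 14 did not pass either. The kinase genes WAG2 and PID2, whose family phosphorylates PIN proteins, differed by -0.10 and 0.09. The glucosyltransferase genes UGT84B1 and UGT74D1, which attach glucose to auxin, differed by 0.05 and 0.04. Of the transcription factor genes, HAT2 (a homeodomain protein induced by auxin) differed by -0.07, LBD16 by 0.11 and PUCHI by 0.05. HAT2 was the other gene whose 35S:PCO1 arrays all lay below the wild-type arrays, at 7.60, 7.61 and 7.66 in 35S:PCO1, against 7.68, 7.69 and 7.70 in wild type. Most of the 14 signals were weak. Means over all arrays of WAG2 (3.73) and UGT84B1 (3.76) lay within the range of dap and lys (3.07 to 3.82). Only EXPA8, HAT2 and UGT74D1 had means above 5.89, the highest value of the other bacterial controls (log2).

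**Figure D3:**
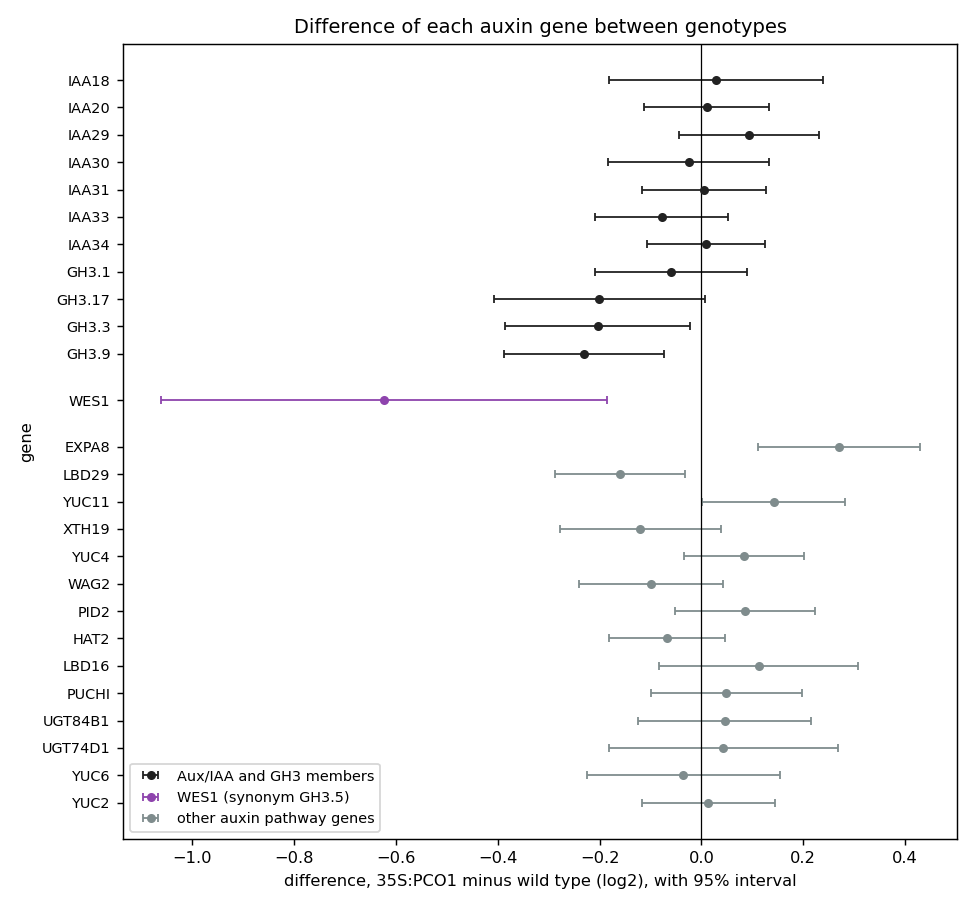
Difference between 35S:PCO1 and wild type (log2, 35S:PCO1 minus wild type, horizontal axis) with its 95% interval from limma, for the 11 Aux/IAA and GH3 genes (black), WES1 (purple) and 14 other auxin pathway genes (grey). The Aux/IAA intervals all hold 0, and the 4 GH3 genes lie between -0.23 and -0.06.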

How the data were processed

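The deposited table holds a log2 value for each probe set on each array, which the authors made with RMA (version not given), per the submitters' processing notes. RMA gives every probe set a value, forces the arrays' distributions together and compresses differences of weak signals. Of 22810 probe sets, 64 Affymetrix controls were set aside. Of the 22746 tested, 13513 had 1 gene in GEO's platform annotation, 503 several and 8730 none (unnamed here); 13436 of the first matched the RefSeq table of assembly TAIR10.1, used for names only. No genome build is named for the values, so no coordinates are given. No sample column was left out.

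Groups were compared with limma 3.58.1 in R 4.3.3 (lmFit and eBayes, constant prior, no covariate, two-sided, Benjamini-Hochberg over all 22746, threshold 0.05). The number of arrays limits precision: the median SE was 0.0648. An exact permutation test of 3 against 3 cannot give a p below 0.1. The fit was tested on simulated data. The members and gene lists were chosen with earlier results of these data known, and lists have no test. The text names every member and the 4 pathway genes with the smallest p; pathway genes beyond these 4 are given as members of their list, with HAT2's arrays chosen after its values were seen. The alternatives were filters on dim probe sets, 3 scalings, array weights, a trended robust prior, blocking by replicate number, an unmoderated t statistic, another threshold, each array left out, probe set averages and other ways of naming members.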

Additional observations from a re-analysis of the deposited data

How the results depend on the processing

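Over the alternatives that kept a member in the fit, 159 of 161 member values stayed on the same side of the threshold. The exceptions were GH3.9 (-0.24, limma adjusted p = 0.0182) and GH3.17 (-0.27, limma adjusted p = 0.0368), both with array weights (4.55 for wild-type replicate 2, and 0.434 to 1.42 elsewhere). WES1 also passed with array weights (-0.64, limma adjusted p = 0.0105). Array weights thus gave 2 members (0 higher, 2 lower), 2 other pathway genes (EXPA8 higher, LBD29 lower) and 2216 probe sets in all, against 0, 0 and 191. The ordinary t statistic gave 0 of all probe sets (2472 at an unadjusted p under 0.05) and 0 members (1 at an unadjusted p under 0.05), and an adjusted p under 0.1 gave 426 probe sets and 0 members. Leaving out 1 array gave 5 to 489 probe sets, 0 members and 0 to 1 other pathway genes (EXPA8, without wild-type replicate 3); the count of 5 arose when wild-type replicate 2 or 35S:PCO1 replicate 1 or 3 was left out. The cause was not tested. GH3.3, GH3.9 and GH3.17 had negative differences in every alternative run, at adjusted p of 0.0572 to 0.612, 0.0182 to 0.546 and 0.0368 to 0.776, while GH3.1 was above 0 in 1 of 14 (0.03, with array weights). The Aux/IAA median, near 0, changed sign with cyclic loess (-0.0024), array weights (-0.02) and without wild-type replicate 1 (-0.0089). The filters on dim probe sets kept 6 and 1 members, so the stricter one gives no GH3 value. With the replicate number as a block, 228 probe sets and 0 members passed; deviations of arrays with the same number were not correlated positively (r over probe sets -0.06, -0.08 and -0.02), so the numbers are not read as pairs. Adding WES1, chosen after seeing the data, left the GH3 median at -0.20. Weak signals limit what falls could be seen.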
